A study of Homo sapiens with 12 samples.

Results

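The comparison described here is a contrast of contrasts: the response of HEK-293T cells to a SMARCA4 guide RNA when the guide worked with a YTHDF2 effector, minus the response to the same guide label when it worked with a nuclease effector. HEK-293T is an established line from human embryonic kidney in which SV40 large T antigen is expressed. All 12 libraries of the series enter it, 3 in each of 4 groups: YTHDF2 effector (CIRTS-3) with the SMARCA4 guide, YTHDF2 effector with the non-targeting (NT) guide, nuclease effector (CIRTS-12) with the SMARCA4 guide, and nuclease effector with the NT guide. They are called YTHDF2-SMARCA4, YTHDF2-NT, nuclease-SMARCA4 and nuclease-NT. Every group holds an effector and a guide, so no group shows cells without the system. The series describes its replicates as biological, and no label names a culture, a transfection or a batch, so that an effector and anything that went with it cannot be told apart.

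CIRTS systems join human protein parts into a programmable RNA-binding effector: one part holds a guide RNA, another binds single-stranded RNA, and one more acts on the RNA that the guide finds. YTHDF2 is a reader of N6-methyladenosine (m6A) that brings a transcript to the deadenylation and decay machinery, whereas a nuclease cuts the RNA directly. SMARCA4 (BRG1) is the ATPase of BAF chromatin remodelling complexes. The question of this contrast is which transcripts answered the same guide label differently with these ways of acting on RNA, and which went in opposite directions.

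Estimated counts were summed per gene and tested with edgeR's quasi-likelihood test on all 12 libraries. A positive log2 difference means that the SMARCA4-over-NT change was more positive with YTHDF2 than with the nuclease. Levels are counts scaled to library size by TMM-adjusted totals (CPM), and errors beside means are SD with n = 3 libraries. The libraries held between 9206961 and 18047545 counts, and 16297 genes passed the filter on low counts. Of the HEK-293T lineage genes listed, 12 of 15 passed the filter, while 0 of 10 liver markers, 3 of 10 blood markers, 5 of 10 fibroblast markers and 6 of 10 epithelial markers passed the filter. The median difference was -0.22 over the lineage genes, -0.23 over fibroblast, -0.44 over epithelial and 0.14 over blood markers, and their part in the results was not tested.

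The 3 YTHDF2-NT libraries stood apart from one another. After each gene was centred on its mean over libraries, its level followed transcript length with a Spearman rho across 16211 genes of -0.52 for replicate 1, 0.47 for replicate 2 and -0.24 for replicate 3. The same correlation with GC content was 0.32, -0.48 and 0.01. These are correlations across genes of one library, and genes are not independent replicates. Since these libraries enter every value of the contrast, results are given below also without the first or the second of them where that matters.

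Replication-dependent histones and p53 targets had positive median differences, 0.81 and 0.30 on the log2 scale, while cytosolic ribosomal proteins, respiratory chain genes and elongation factors had negative ones, -0.49, -0.30 and -0.23, against a median of -0.0046 over all genes. With length and GC trends removed these 5 medians were 1.025, 0.29, -0.15, -0.07 and -0.17 in the same order. No single gene passed an adjusted p of 0.05 in edgeR: 0 of 16297 genes were called (0.0%). The lowest adjusted p, 0.0985, was shared by HIST1H2AC, AC008440.2 and AC010422.3. At an unadjusted p below 0.05 there were 1802 genes, 835 with a positive difference (5.12% of the genes tested) and 967 with a negative one (5.93%). DESeq2 on the same counts called 38 genes, 31 higher and 7 lower, and all 38 were also among those called when YTHDF2-NT 2 was left out. Without that library edgeR called 1444 genes, whereas leaving out any other single library gave 0.

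**Figure D1:**
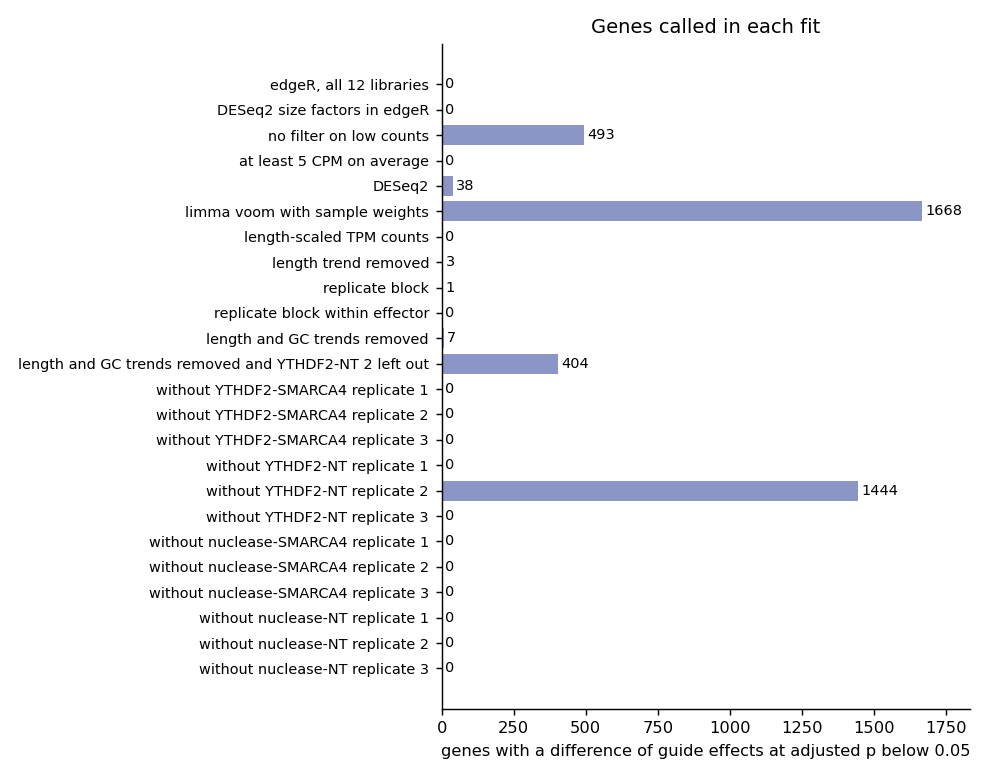
Number of genes with a difference of guide effects at an adjusted p below 0.05 (horizontal axis, from 0) in each fit (vertical axis). The fit of all 12 libraries with edgeR gives 0, DESeq2 gives 38, voom with sample weights gives 1668 and the fit without YTHDF2-NT replicate 2 gives 1444.

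SMARCA4, the gene the guide is named for (ENSG00000127616.17, GENCODE 29 on GRCh38, chr19:10960825-11079426, plus strand), did not differ detectably between the effectors. It was at 243, 210.2 and 221 CPM in YTHDF2-SMARCA4 libraries against 302, 235 and 250.2 CPM in YTHDF2-NT libraries, and at 239, 250.02 and 219.6 CPM in nuclease-SMARCA4 libraries against 225, 245 and 242 CPM in nuclease-NT libraries. The guides overlapped with either effector. The log2 fold change was -0.22 with YTHDF2 and -0.01 with the nuclease, and the difference was -0.22 (SE 0.13, 95% interval -0.52 to 0.09, edgeR adjusted p = 0.552). An exact permutation test of guide labels within each effector, two-sided over 400 arrangements with a smallest possible p of 0.005, gave p = 0.21. The difference ranged from -0.36 to -0.10 over the alternative fits and was never called. Of 27 measured BAF subunits, 16 had a positive and 11 a negative difference (median 0.06), and 2 were below an unadjusted p of 0.05, both negative (5.93% of all genes were lower at that p): BRD7 at -0.21 (SE 0.08) and SMARCB1 at -0.29 (SE 0.12). Among 13 measured neighbours of SMARCA4 on chromosome 19, 0 were.

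The levels of the effector and of the reporters were read as a check of the labels and of the constructs. YTHDF2 averaged 5653 ± 724 CPM in YTHDF2-SMARCA4 and 6619 ± 1307 CPM in YTHDF2-NT libraries, against 241 ± 32.7 CPM in nuclease-SMARCA4 and 264 ± 17.9 CPM in nuclease-NT libraries, so its level was high in the libraries labelled with it. Its difference was -0.10 (SE 0.20, edgeR adjusted p = 0.869). The labels do not list the parts of the constructs, and SNRPA, SMG6 and HBEGF are counted among them from general knowledge of CIRTS. SMG6 was at 41.2 ± 5.51 and 41.4 ± 2.54 CPM with YTHDF2 (SMARCA4 guide, then NT guide). With the nuclease it was at 38.2 ± 2.50 and 48.1 ± 4.64 CPM. In the same order HBEGF was at 6.34 and 6.35 CPM with YTHDF2 and at 4.44 and 5.13 CPM with the nuclease. Neither gene was raised in both nuclease groups, so these levels gave no check of the nuclease label. SNRPA, whose protein is known as the source of the guide-binding part, was at 4928 ± 496 and 5159.6 ± 1042 CPM with YTHDF2 (SMARCA4 guide, then NT guide) and at 3094 ± 755 and 4996 ± 645 CPM with the nuclease. Renilla luciferase, a reporter target in the count tables, was at 354, 481 and 451 CPM in YTHDF2-SMARCA4 against 297, 408 and 454 CPM in YTHDF2-NT libraries, and at 229, 248 and 334 CPM in nuclease-SMARCA4 against 424, 569 and 501 CPM in nuclease-NT libraries. Thus the 2 guides overlapped for renilla with YTHDF2 and not with the nuclease, where the SMARCA4 guide had the lower level. Its difference was 1.03 (SE 0.25, edgeR adjusted p = 0.250), and that of firefly luciferase was 0.43 (SE 0.27). Of these 6 presumed construct parts and reporters, 5 had a positive difference. The part of unequal construct level in the results below was not tested.

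Over all genes the guide effects were weakly opposed. The log2 fold changes had opposite signs with the 2 effectors in 9101 of 16297 genes (55.8%), of which 4411 were positive with YTHDF2 and negative with the nuclease and 4690 the reverse. Across genes the fold changes had a Pearson r of -0.08 and a Spearman rho of -0.13; the 2 effects share no library, but genes share the trends of each library. The share of opposite signs was 47.6% without YTHDF2-NT 1 and 51.0% after length and GC trends were removed. The log2 difference itself followed length with a rho of 0.33 and GC with -0.22 across 16211 genes. In 10 equal bins of genes by length its median was -0.31 in the shortest bin and 0.12 in the longest. These medians were -0.13 and 0.01 without YTHDF2-NT 1, and -0.43 and 0.29 without YTHDF2-NT 2.

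**Figure D2:**
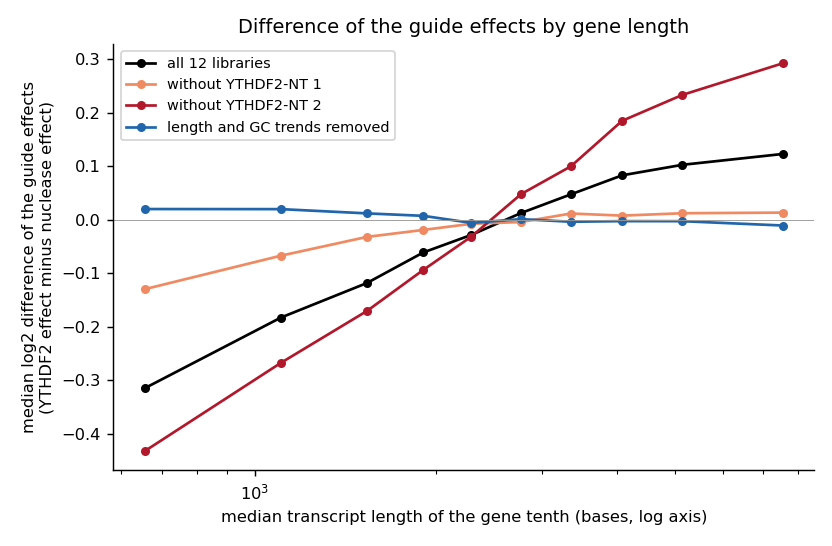
Median log2 difference of the guide effects (vertical axis, YTHDF2 effect minus nuclease effect) in 10 equal bins of genes by transcript length (horizontal axis, median length in bases, log axis). With all 12 libraries the line climbs between -0.31 and 0.12, it is flatter without YTHDF2-NT 1, steeper without YTHDF2-NT 2 and close to 0 after both trends are removed.

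A stricter description counts genes whose 3 SMARCA4-guide libraries and 3 NT-guide libraries did not overlap with either effector. There were 208 such genes with opposite directions: 104 (0.638%) higher with the SMARCA4 guide under YTHDF2 and lower under the nuclease, and 104 (0.638%) the reverse. With length and GC trends removed 332 genes met this, with 1 library left out, which loosens the requirement, 261 to 385, and without YTHDF2-NT 2 1291. Genes without overlap in the same direction numbered 171 (1.05%, against 1.28% in opposite directions), 74 of them higher and 97 lower with the SMARCA4 guide under both effectors. Each effector taken by itself, the guides did not overlap in 1510 genes (9.27%) with YTHDF2 and in 4083 genes (25.1%) with the nuclease. Whether the opposite class is larger than unrelated guide effects would give was not tested. Transcript length had a median of 2826 bases in the first opposite class and 2213 bases in the second, against 2521 bases over all genes.

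**Figure D3:**
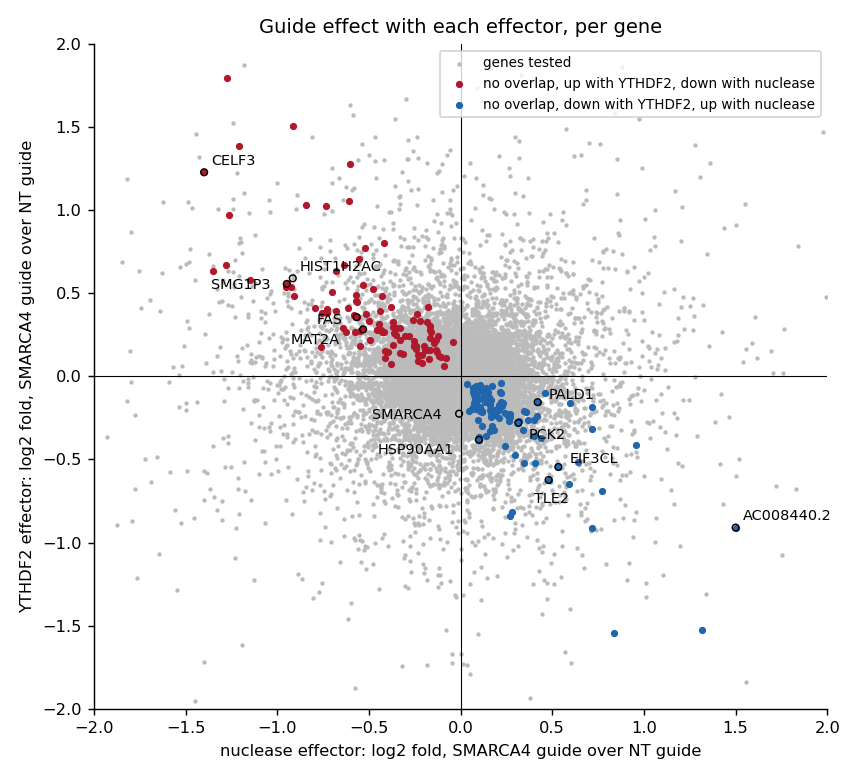
Guide effect (log2 fold, SMARCA4 over NT guide) with the YTHDF2 effector (vertical axis) against that with the nuclease effector (horizontal axis), 1 point per gene; 111 of the 16297 genes lie outside the limits of 2 on either axis. Red and blue points are the 104 and 104 genes without overlap in opposite directions, and open circles are genes named in the text.

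Among the genes that were higher with YTHDF2 and lower with the nuclease, the p53 target FAS, a death receptor at the cell surface (chr10:88990582-89015785, plus strand), was at 14.7, 16.3 and 18.9 CPM in YTHDF2-SMARCA4 against 11.8, 13.8 and 13.5 CPM in YTHDF2-NT libraries, and at 10.3, 12.5 and 12.7 CPM in nuclease-SMARCA4 against 15.2, 19.7 and 17.4 CPM in nuclease-NT libraries. The guides did not overlap with either effector, and the 2 directions were opposite. The log2 fold changes were 0.36 with YTHDF2 and -0.57 with the nuclease (difference 0.92, SE 0.19, edgeR adjusted p = 0.222, DESeq2 adjusted p = 0.0216). The difference in FAS lay between 0.79 and 1.02 over all alternative fits, with adjusted p between 0.00255 and 0.519.

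MAT2A makes S-adenosylmethionine, the methyl donor of m6A writing, and its own transcript is known to be controlled through m6A near its 3' end. It was at 153, 186 and 167 CPM in YTHDF2-SMARCA4 against 120.0, 148 and 147 CPM in YTHDF2-NT libraries, and at 92.7, 95.9 and 109.6 CPM in nuclease-SMARCA4 against 124, 167 and 140.1 CPM in nuclease-NT libraries. All 3 SMARCA4-guide libraries were above the NT libraries with YTHDF2 and below them with the nuclease. The difference was 0.81 (SE 0.17, edgeR adjusted p = 0.222, DESeq2 adjusted p = 0.0106), and its main transcript, MAT2A-201, differed by 0.81 as well. Of the 20 measured genes of the m6A machinery, MAT2A was the only one without overlap in opposite directions, and the list median was 0.05. At an unadjusted p below 0.05, 1 gene was higher (MAT2A) and 1 lower (the nuclear RNA-binding protein HNRNPA2B1, -0.23, SE 0.10). Over all genes 5.12% were higher and 5.93% lower at that p. The writers METTL3 and METTL14 differed by 0.02 each (SE 0.12 and 0.13), and the eraser FTO by 0.14 (SE 0.18).

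CLK1, a kinase that phosphorylates SR splicing factors, was at 58.0, 57.7 and 57.0 CPM in YTHDF2-SMARCA4 against 46.5, 48.4 and 53.1 CPM in YTHDF2-NT libraries, and at 39.4, 34.5 and 38.05 CPM in nuclease-SMARCA4 against 42.8, 53.7 and 44.2 CPM in nuclease-NT libraries. It too was without overlap in opposite directions (difference 0.55, SE 0.13, edgeR adjusted p = 0.252, not called by DESeq2). Its paralogue CLK4 had a difference of 0.68 (SE 0.17), and SRSF6, an SR protein, one of 0.52 (SE 0.16): its log2 fold change was -0.01 with YTHDF2 and -0.53 with the nuclease. Of 14 measured CLK kinases and SR factors 12 had a positive difference, with a median of 0.19 against -0.0046 over all genes. Of these, 4 were below an unadjusted p of 0.05, all higher (5.12% of all genes were). The median was 0.06 with length-scaled TPM and 0.09 with length and GC trends removed and YTHDF2-NT 2 left out, and CLK4 was at 0.41 with length-scaled TPM.

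PARP6, a mono-ADP-ribosyltransferase, was at 50.5, 48.8 and 46.8 CPM in YTHDF2-SMARCA4 against 40.4, 36.6 and 40.3 CPM in YTHDF2-NT libraries, and at 32.2, 35.4 and 36.8 CPM in nuclease-SMARCA4 against 39.1, 51.4 and 51.9 CPM in nuclease-NT libraries (difference 0.76, SE 0.15, edgeR adjusted p = 0.222). CPT1B, the muscle form of carnitine palmitoyltransferase, was at 8.33, 8.62 and 8.10 CPM in YTHDF2-SMARCA4 against 7.76, 7.40 and 6.95 CPM in YTHDF2-NT libraries, and at 7.44, 7.61 and 6.81 CPM in nuclease-SMARCA4 against 11.8, 11.8 and 13.7 CPM in nuclease-NT libraries (difference 0.94, SE 0.16, edgeR adjusted p = 0.177). Every nuclease-NT library of CPT1B stood above all libraries of the other groups. In PARP6 and CPT1B the guides were apart under either effector, and in CPT1B the nuclease fold change of -0.76 was the larger one, against 0.18 with YTHDF2. WDR90 (0.83, SE 0.17), SEC31B (1.22, SE 0.27), FAM13B (1.11, SE 0.26) and LRP5L (1.08, SE 0.25) showed the same pattern, as did CELF3, an RNA-binding splicing regulator of low level (2.63, SE 0.54). So did the pseudogene SMG1P3 (1.505, SE 0.30) and LRRC37B (1.06, SE 0.23), which have near-identical copies, so that their counts are uncertain. WDR90 (DESeq2 adjusted p = 0.0767), CELF3 (DESeq2 adjusted p = 0.0762), SEC31B and LRP5L were not called by DESeq2.

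Other genes differed through the nuclease arm, with overlapping guides under YTHDF2. ZNF767P, a transcribed pseudogene, was at 26.4, 33.6 and 34.7 CPM in YTHDF2-SMARCA4 against 25.3, 29.7 and 32.6 CPM in YTHDF2-NT libraries, and at 19.5, 23.5 and 24.9 CPM in nuclease-SMARCA4 against 41.8, 53.1 and 52.2 CPM in nuclease-NT libraries. The difference was 1.23 (SE 0.20, edgeR adjusted p = 0.116, DESeq2 adjusted p = 5.14e-05), made of a log2 fold change of 0.11 with YTHDF2 and -1.12 with the nuclease. PRKAB1, a regulatory subunit of AMP-activated kinase (0.57, SE 0.11), and MCOLN3, an endolysosomal cation channel (0.90, SE 0.18), had the same shape. In ZNF767P, PRKAB1 and MCOLN3 every nuclease-NT library stood above all libraries of the other groups, in MCOLN3 narrowly (16.3 against 16.2 CPM in YTHDF2-NT 2).

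**Figure D4:**
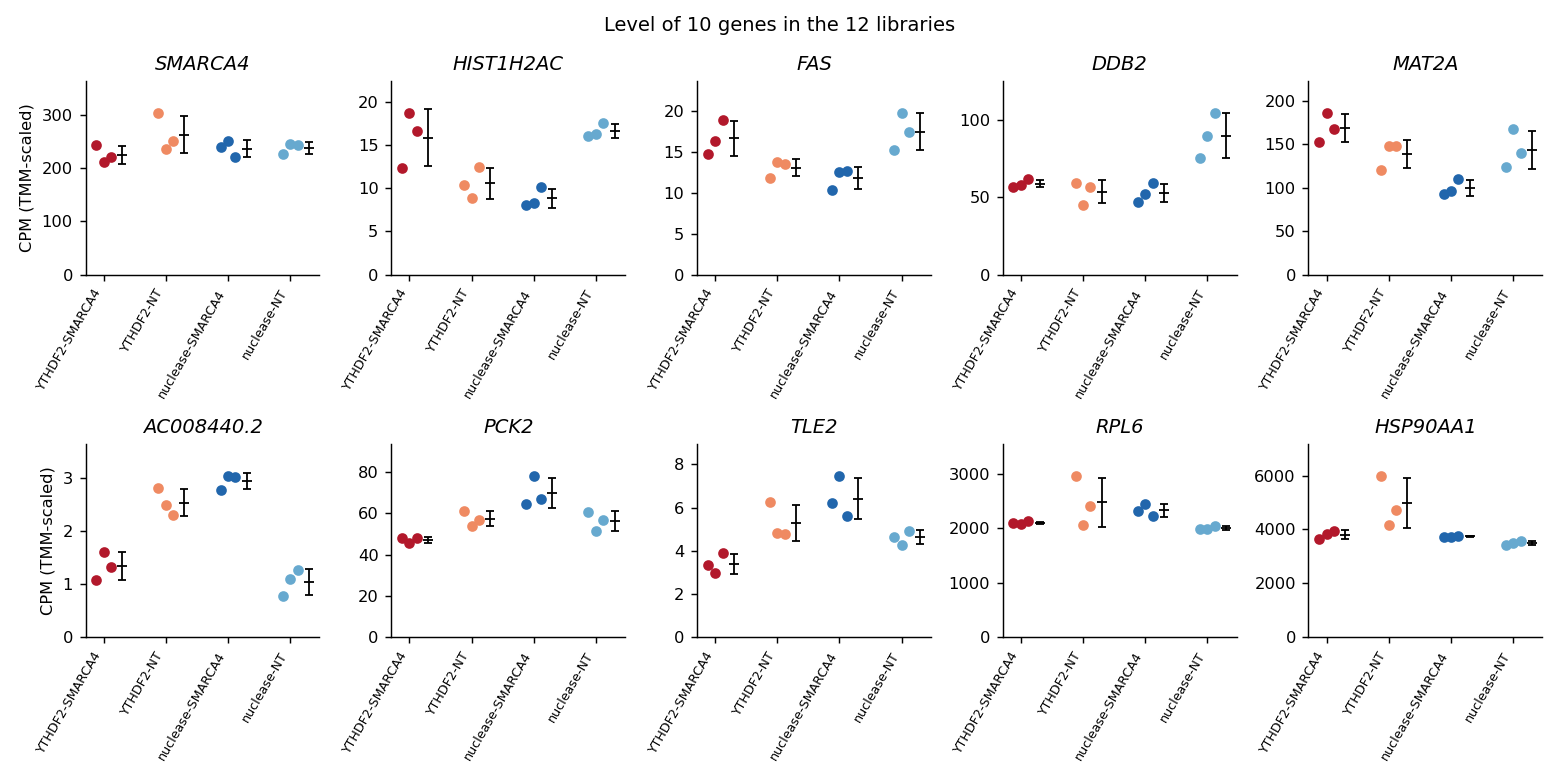
Level of 10 genes in CPM (vertical axes, from 0) in the 12 libraries, by group; points are libraries, the bar beside each group is the mean with its SD (n = 3). FAS and MAT2A are higher with the SMARCA4 guide under YTHDF2 and lower under the nuclease, AC008440.2, PCK2 and TLE2 show the reverse, and SMARCA4 overlaps between guides under both effectors.

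In the opposite class, genes were lower with the SMARCA4 guide under YTHDF2 and higher under the nuclease. PCK2, the mitochondrial phosphoenolpyruvate carboxykinase and a target of the stress-response factor ATF4, was at 48.1, 45.6 and 48.0 CPM in YTHDF2-SMARCA4 against 61.3, 54.0 and 56.7 CPM in YTHDF2-NT libraries, and at 64.7, 78.1 and 66.9 CPM in nuclease-SMARCA4 against 60.8, 51.2 and 56.8 CPM in nuclease-NT libraries. The groups were apart under either effector (difference -0.59, SE 0.13, edgeR adjusted p = 0.222, DESeq2 adjusted p = 0.0257). Of 23 measured genes of the integrated stress response 18 had a negative difference (median -0.17). At an unadjusted p below 0.05, 3 of them were lower (5.93% of all genes were). These were PCK2, MTHFD2 (-0.22, SE 0.09), an enzyme of mitochondrial folate metabolism, and ASNS (-0.22, SE 0.10), asparagine synthetase. ATF4 itself differed by -0.37 (SE 0.18).

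PALD1 was at 22.4, 20.3 and 22.2 CPM in YTHDF2-SMARCA4 against 24.8, 24.1 and 23.4 CPM in YTHDF2-NT libraries, and at 30.0, 31.3 and 29.4 CPM in nuclease-SMARCA4 against 21.5, 23.0 and 23.3 CPM in nuclease-NT libraries (difference -0.58, SE 0.12). TLE2, a Groucho-family corepressor, was at 3.33, 2.99 and 3.91 CPM in YTHDF2-SMARCA4 against 6.24, 4.82 and 4.80 CPM in YTHDF2-NT libraries, and at 6.20, 7.47 and 5.60 CPM in nuclease-SMARCA4 against 4.66, 4.28 and 4.94 CPM in nuclease-NT libraries (difference -1.10, SE 0.25). PALD1 departed more under the nuclease and TLE2 more under YTHDF2. PALD1 was called by DESeq2 (adjusted p = 0.0316) and TLE2 was not. CREB3L4, a membrane-bound transcription factor, differed by -0.81 (SE 0.17), HSD11B1L by -1.03 (SE 0.21), and MOGS, the glucosidase that starts trimming of N-glycans, by -0.47 (SE 0.11), with adjusted p between 0.222 and 0.241 in edgeR. With length-scaled TPM CREB3L4 was at -0.30 and MOGS at -0.29. CREB3L4, HSD11B1L and MOGS were not called by DESeq2. EIF3CL (-1.08, SE 0.23) and FAM72C (-0.90, SE 0.20) belong to families of near-identical copies, so that their split of counts is uncertain.

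Among the genes with the lowest adjusted p, 2 were of low level. AC008440.2, annotated as an antisense gene (chr19:53874626-53876049, minus strand), was at 1.08, 1.60 and 1.32 CPM in YTHDF2-SMARCA4 against 2.80, 2.49 and 2.29 CPM in YTHDF2-NT libraries, and at 2.77, 3.03 and 3.002 CPM in nuclease-SMARCA4 against 0.777, 1.09 and 1.26 CPM in nuclease-NT libraries. The guides did not overlap under either effector, and the difference was -2.41 (SE 0.36, edgeR adjusted p = 0.0985). The strand setting of the counting is unknown here, so reads of its sense partner cannot be told apart. AC010422.3 had 0 counts in all YTHDF2-SMARCA4 libraries against 4.80, 1.496 and 2.36 CPM in YTHDF2-NT libraries, at least 13.9-fold lower against a floor of 3 counts per library, and 0.729, 2.47 and 0.649 CPM in nuclease-SMARCA4 against 0, 0.204 and 0 CPM in nuclease-NT libraries.

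The heat shock list held a subset in this class. HSP90AA1, the inducible cytosolic HSP90, was at 3652, 3829.9 and 3953 CPM in YTHDF2-SMARCA4 against 5986, 4175 and 4736 CPM in YTHDF2-NT libraries, and at 3732, 3723 and 3769.9 CPM in nuclease-SMARCA4 against 3429, 3491 and 3555 CPM in nuclease-NT libraries (difference -0.48, SE 0.14, edgeR adjusted p = 0.370). YTHDF2-NT 1 held the highest value, and the groups were apart under either effector. HSP90AB1 (-0.25, SE 0.08), the mitochondrial chaperonin HSPD1 (-0.25, SE 0.08) and the HSP90 cochaperone FKBP4 (-0.32, SE 0.10) were the other 3 of 22 members without overlap in these directions, against 0.638% of all genes. HSPB1 had the most negative difference of the list, -0.81 (SE 0.22, edgeR adjusted p = 0.312). Its guides overlapped with YTHDF2, where YTHDF2-NT 1 again held the highest value (153 CPM). Over the list 10 genes had a positive and 12 a negative difference (median -0.01). At an unadjusted p below 0.05, 0 were higher and 6 lower, against 5.12% and 5.93% of all genes. HSPA8 and DNAJB1 differed by 0.13 (SE 0.12) and 0.00 (SE 0.12).

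Replication-dependent histone genes had the highest list median, 0.81 against -0.0046 over all genes, with a range of 0.64 to 1.05 over the alternative fits. These genes encode the core and linker histones made in S phase, and most of their messages end in a conserved stem-loop in place of a poly(A) tail; the libraries were prepared from enriched mRNA, per the labels. Only 16 of 24 listed genes passed the filter, so their counts describe these alone. The search for a stem-loop used a stem of 6 paired bases opening with GG and a loop of 4 bases opening with TT in GENCODE 29 transcripts, on the transcript's strand only. It was found in 9 of the 16 genes and in 254 of 115722 transcripts of tested genes (0.219%). The sequences of the 4 genes with a match and an unadjusted p below 0.05 show the element in annotated transcripts of these genes. The stem-loop is in capitals, with 5 bases on either side.
HIST1H2AC: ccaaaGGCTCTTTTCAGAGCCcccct
HIST2H4A: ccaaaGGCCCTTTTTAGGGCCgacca
HIST1H2BD: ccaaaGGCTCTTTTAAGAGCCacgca
HIST1H4H: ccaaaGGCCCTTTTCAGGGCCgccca
In HIST1H2AC-201 the element spans bases 525 to 540 and 1128 bases follow it, whereas in HIST1H4H-201 only 18 bases follow it, so the annotated transcripts include forms that read past the stem-loop. The match in HIST1H2BD is in HIST1H2BD-202 and not in HIST1H2BD-201, which averaged 4.03 to 6.14 CPM over the groups. Which transcripts of these genes held the counts was not tested.

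HIST1H2AC, an H2A gene of the chromosome 6 cluster (chr6:26124145-26139116, plus strand), was at 12.3, 18.7 and 16.6 CPM in YTHDF2-SMARCA4 against 10.3, 8.89 and 12.5 CPM in YTHDF2-NT libraries, and at 8.09, 8.24 and 10.1 CPM in nuclease-SMARCA4 against 16.1, 16.3 and 17.6 CPM in nuclease-NT libraries. The SMARCA4 guide was below the NT guide in every nuclease library and above it in most pairs of libraries with YTHDF2, where the guides overlapped at 12.3 and 12.5 CPM. The log2 fold changes were 0.59 with YTHDF2 and -0.92 with the nuclease, and the difference was 1.51 (SE 0.23, 95% interval 0.97 to 2.04, edgeR adjusted p = 0.0985, DESeq2 adjusted p = 5.14e-05). It lay between 1.32 and 1.66 over the alternative fits, with adjusted p between 1.17e-08 and 0.431.

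HIST2H4A, an H4 gene on chromosome 1 with a near-identical copy (HIST2H4B) that makes its counts uncertain, was at 45.1, 38.8 and 26.8 CPM in YTHDF2-SMARCA4 against 17.9, 22.0 and 27.7 CPM in YTHDF2-NT libraries, and at 15.5, 10.8 and 27.4 CPM in nuclease-SMARCA4 against 33.4, 35.0 and 57.9 CPM in nuclease-NT libraries (difference 1.93, SE 0.44, edgeR adjusted p = 0.239). The 2 guides were apart with the nuclease and overlapped with YTHDF2. HIST1H1C, a linker histone, differed by 0.79 (SE 0.23) and HIST1H2BJ, an H2B gene, by 1.15 (SE 0.30); both were named after their values were seen. In all, 13 of the 16 measured histones had a positive difference. At an unadjusted p below 0.05, 7 were higher and 0 lower, against 5.12% and 5.93% of all genes. The 3 with a negative difference were HIST1H4C (-0.60, SE 0.51), HIST1H1E (-0.44, SE 0.40) and HIST1H2BC (-0.05, SE 0.73).

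The mean log2 level of the 16 histones, relative to its mean over the libraries, was 0.23, 0.20 and 0.28 in YTHDF2-SMARCA4 against 0.05, -0.25 and -0.05 in YTHDF2-NT libraries, and -0.31, -0.27 and -0.20 in nuclease-SMARCA4 against -0.02, 0.23 and 0.10 in nuclease-NT libraries. For this mean the guides did not overlap under either effector and went in opposite directions. Taken singly, 0 of the 16 genes did so. The fold change was positive with YTHDF2 and negative with the nuclease in 9 of them, and the reverse in 2. The median transcript length of the list was 783 bases. Genes of the G1/S transition and of DNA replication, read as other marks of S phase, had a median difference of 0.05 over 28 genes. At an unadjusted p below 0.05 were 2, both higher (5.12% of all genes were): CDC6 (0.29, SE 0.10) and CDC25A (0.22, SE 0.10). Of 28 genes of G2/M and mitosis 21 had a negative difference (median -0.09). Below an unadjusted p of 0.05 were 6 of these (5.93% of all genes were lower), among them UBE2C (-0.37, SE 0.15) and TOP2A (-0.22, SE 0.09). With length and GC trends removed UBE2C was at -0.05 and TOP2A at -0.42. The part of cell cycle distribution in the histone values was not tested.

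**Figure D5:**
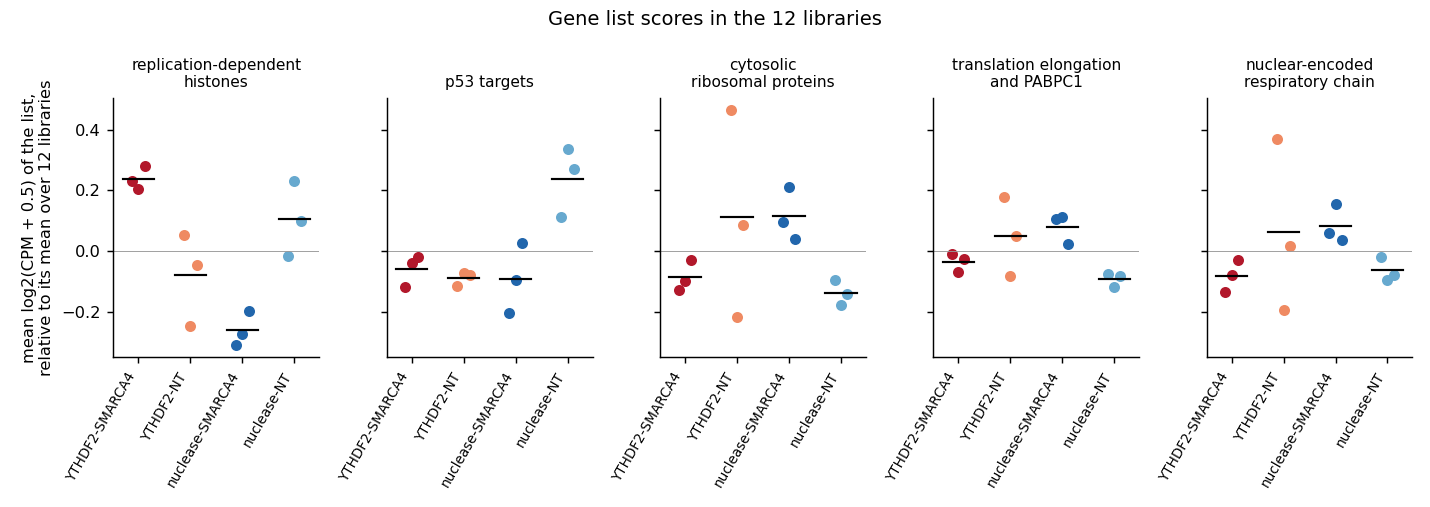
Mean log2(CPM + 0.5) of 5 gene lists relative to each list's mean over the 12 libraries (vertical axis), by group; points are libraries and bars are group means. The histone score is higher with the SMARCA4 guide under YTHDF2 and lower under the nuclease without overlap, p53 targets stand high in nuclease-NT, and the ribosomal score of YTHDF2-NT spans -0.22 to 0.47.

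Targets of p53 had a positive median as well. HEK-293T cells carry large T antigen, which binds p53, and the genes listed are known to be activated by p53 in many human cells. Of 26 measured targets 23 had a positive difference (median 0.30, range 0.26 to 0.44 over the alternative fits). At an unadjusted p below 0.05, 12 were higher and 1 lower, against 5.12% and 5.93% of all genes. The median log2 fold change was 0.05 with YTHDF2 and -0.31 with the nuclease. In 17 of the 26 the signs were positive with YTHDF2 and negative with the nuclease.

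DDB2, a damage-recognition protein of nucleotide excision repair, was at 56.9, 58.1 and 61.5 CPM in YTHDF2-SMARCA4 against 59.2, 45.0 and 56.7 CPM in YTHDF2-NT libraries, and at 47.1, 51.9 and 59.1 CPM in nuclease-SMARCA4 against 75.1, 89.8 and 104 CPM in nuclease-NT libraries. Here the nuclease-NT libraries stood alone above the other 9, as they did in CPT1B, ZNF767P, PRKAB1 and, narrowly, MCOLN3. The difference was 0.90 (SE 0.18, edgeR adjusted p = 0.222, DESeq2 adjusted p = 0.0074). PLK3 (1.17, SE 0.33) and PLK2 (0.999, SE 0.31), stress-responsive polo-like kinases, GDF15 (0.70, SE 0.27), a secreted stress cytokine, AEN (0.57, SE 0.15), an apoptosis-enhancing nuclease, and MDM2 (0.41, SE 0.15), the ubiquitin ligase of p53, also had positive differences at an unadjusted p below 0.05, while CDKN1A (p21) differed by 0.13 (SE 0.13). The gene lower at that p was BBC3 (PUMA), a BH3-only death inducer, at -0.47 (SE 0.16). The score over the list was -0.12, -0.04 and -0.02 in YTHDF2-SMARCA4 against -0.12, -0.07 and -0.08 in YTHDF2-NT libraries, and -0.20, -0.10 and 0.03 in nuclease-SMARCA4 against 0.11, 0.34 and 0.27 in nuclease-NT libraries. The guides overlapped with YTHDF2 and not with the nuclease, as for renilla luciferase.

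Cytosolic ribosomal proteins had the most negative median of the lists. All 50 measured cytosolic ribosomal protein genes had a negative difference (median -0.49), negative with YTHDF2 and positive with the nuclease in every case, and 45 were below an unadjusted p of 0.05 (5.93% over all genes in that direction). The messages of these genes are known for a start of pyrimidines, the 5' terminal oligopyrimidine (TOP) element, through which their translation and stability are controlled. RefSeq starts (GRCh38.p14) were matched for 40 of the 50. A run opening with C and holding at least 5 pyrimidines, beginning within 5 bases of the annotated start on the gene's strand, was found in 32 of these 40, and in 2440 of 10856 starts of all tested genes with an entry (22.5%). Starts of 4 genes with low unadjusted p are shown, 10 bases before and 20 bases from the annotated start, with the run in capitals.
RPS24: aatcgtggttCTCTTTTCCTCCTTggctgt
RPL37A: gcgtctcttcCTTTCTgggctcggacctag
RPL7A: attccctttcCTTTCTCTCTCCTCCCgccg
RPLP2: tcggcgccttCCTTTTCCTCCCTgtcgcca
They lie at chr10:78033853-78033882, chr2:216498834-216498863, chr9:133348208-133348237 and chr11:809957-809986, all on the plus strand, and their differences were -0.57, -0.65, -0.49 and -0.70.

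RPL6, a protein of the large ribosomal subunit, was at 2089, 2083 and 2127 CPM in YTHDF2-SMARCA4 against 2962, 2069 and 2406 CPM in YTHDF2-NT libraries, and at 2316, 2447 and 2225 CPM in nuclease-SMARCA4 against 1980.3, 1979.9 and 2044 CPM in nuclease-NT libraries. The nuclease arm was apart and YTHDF2-NT ranged on both sides of YTHDF2-SMARCA4 (difference -0.46, SE 0.14, edgeR adjusted p = 0.380). The list score was -0.13, -0.10 and -0.03 in YTHDF2-SMARCA4 against 0.47, -0.22 and 0.09 in YTHDF2-NT libraries, and 0.09, 0.21 and 0.04 in nuclease-SMARCA4 against -0.10, -0.18 and -0.14 in nuclease-NT libraries. The genes are short, with a median of 722 bases, and the list median was -0.27 without YTHDF2-NT 1, -0.63 without YTHDF2-NT 2 and -0.15 after length and GC trends were removed. The part of transcript length in the ribosomal values was not tested further.

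Nuclear-encoded respiratory chain genes are short as well (median 901 bases): 34 of 35 measured had a negative difference (median -0.30). At an unadjusted p below 0.05, 12 were lower (5.93% of all genes were). The list median was -0.07 after the trends were removed. NDUFB10, an accessory subunit of complex I, was at 221, 232 and 243 CPM in YTHDF2-SMARCA4 against 393, 217 and 274 CPM in YTHDF2-NT libraries, and at 269.8, 288 and 269 CPM in nuclease-SMARCA4 against 237, 228 and 246 CPM in nuclease-NT libraries. Its difference of -0.56 (SE 0.21) was -0.30 without YTHDF2-NT 1. Translation elongation factors with PABPC1 have longer transcripts (median 1718 bases), and the starts of this list were not read. They had a range of medians from -0.27 to -0.17 over the alternative fits. All 17 had a negative difference with a median of -0.23. EEF1A1, the main aminoacyl-tRNA carrier, was at 11604, 11215 and 11593 CPM in YTHDF2-SMARCA4 against 13569, 11481 and 11670.1 CPM in YTHDF2-NT libraries, and at 13653, 13445 and 12650.3 CPM in nuclease-SMARCA4 against 11436, 10171 and 10534 CPM in nuclease-NT libraries (difference -0.40, SE 0.11, edgeR adjusted p = 0.301).

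Pathways close to the effectors' own machinery had medians nearer to 0. Of 34 deadenylation and decay factors 22 had a positive difference (median 0.09), with 3 higher at an unadjusted p below 0.05 (5.12% of all genes were), among them BTG2 (0.46, SE 0.15), which recruits the CCR4-NOT deadenylase, and its subunit CNOT10 (0.28, SE 0.10). Nonsense-mediated decay (NMD) factors had a median of 0.07 over 14 genes, with SMG5 at 0.30 (SE 0.12) and RNPS1 at -0.27 (SE 0.11). Known NMD targets were split, 14 positive and 8 negative of 22 (median 0.12). At an unadjusted p below 0.05, 6 were higher and 2 lower, against 5.12% and 5.93% of all genes. The extremes were the snoRNA hosts SNHG12 (0.70, SE 0.26) and SNHG16 (-0.53, SE 0.19). Hypoxia and glycolysis genes differed in size rather than in sign: their median fold change was 0.21 with YTHDF2 and 0.32 with the nuclease, and 24 of 35 had a negative difference (median -0.15), among them GAPDH at -0.42 (SE 0.15). The median was 0.04 without nuclease-SMARCA4 1, -0.24 without YTHDF2-SMARCA4 1 and -0.24 without nuclease-SMARCA4 3; the list score was 0.44 in nuclease-SMARCA4 1 and 0.36 in YTHDF2-SMARCA4 1, the 2 highest of the 12 libraries. Interferon-response genes (23 measured, median -0.12), the unfolded protein response (23, -0.07), immediate early genes (29, 0.07), sterol and fatty acid synthesis (31, 0.02) glucose-sensing arrestins (7, -0.21) and the mitochondrially encoded mRNAs (13, -0.13) had 4 or fewer members at an unadjusted p below 0.05 in either direction. No direction can be given for most of these lists: over the alternative fits the median ran from -0.19 to 0.11 for interferon-response genes, from -0.04 to 0.17 for immediate early genes, from -0.04 to 0.08 for sterol synthesis, from -0.32 to 0.0047 for arrestins and from -0.28 to 0.29 for mitochondrial mRNAs, where it was 0.04 without YTHDF2-NT 2 and 0.03 without YTHDF2-SMARCA4 1. The medians of the BAF, m6A, heat shock and NMD factor lists also took both signs, between -0.07 and 0.13.

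At the level of single transcripts 3 of 49518 were called (0.00606%), each with a group at 0 counts. TMEM185A-208 was at 6.22, 7.42 and 11.5 CPM in YTHDF2-SMARCA4 against 3.42, 1.91 and 3.53 CPM in YTHDF2-NT libraries, and at 0 in all nuclease-SMARCA4 libraries against 9.81, 7.40 and 4.93 CPM in nuclease-NT libraries, at least 32.3-fold lower against a floor of 3 counts per library. CACNA2D2-202 was at 0 in all YTHDF2-SMARCA4 libraries against 4.12, 5.15 and 6.26 CPM in YTHDF2-NT libraries, at least 24.7-fold lower, while with the nuclease it was at 5.29, 6.70 and 4.13 CPM with the SMARCA4 guide against 5.54, 8.08 and 8.40 CPM with the NT guide. LRRC4B-202 was at 7.73, 7.98 and 2.62 CPM in YTHDF2-SMARCA4 libraries against 0 in all YTHDF2-NT libraries, at least 26.3-fold higher, and at 3.50, 3.35 and 3.88 CPM in nuclease-SMARCA4 against 9.18, 8.90 and 9.34 CPM in nuclease-NT libraries. The sums of their genes differed far less, by 0.04 for TMEM185A, 0.35 for CACNA2D2 and -0.25 for LRRC4B on the log2 scale, with edgeR adjusted p of 0.934, 0.568 and 0.576. Kallisto divides reads among the transcripts of a gene, so a zero for 1 transcript can accompany reads assigned to another.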

How the data were processed

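Enriched mRNA of 12 HEK-293T libraries in 4 groups of 3 was analysed from the tables the authors deposited. Each deposited table holds kallisto's estimated count per target, and its TPM values, per the file headers, divide these by effective length and keep no depth. Kallisto and sleuth on hg38 are named, without versions, per the submitters' processing notes; no strand setting was found there. The 200403 targets are transcripts and 2 luciferase reporters.

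The estimated counts of all transcripts of a gene ID (58288 human IDs) were added and rounded. For the main test edgeR 4.0.16 (R 4.3.3) fitted quasi-likelihood models with TMM, filterByExpr, 1 mean per group, 8 residual degrees of freedom (the biological coefficient of variation was 11.4%) and Benjamini-Hochberg adjustment over all 16297 genes at 0.05, two-sided. DESeq2 1.42.0, limma 3.58.1 (voom with sample weights), other normalizations and filters, removal of length or GC trends, a replicate block and leaving out each library were alternatives; the removal of GC with length, alone and without YTHDF2-NT 2, was chosen after seeing the data. GC content was known for 99.5% of tested genes, and gene coordinates were taken from GENCODE 29 by gene ID, without the version where it differed. The fit was tested on simulated counts with set differences added to some genes of YTHDF2-SMARCA4. It recovered 2% of 1.25-fold, 18% of 1.5-fold, 82% of 2-fold and 100% of 4-fold differences. Of its 105 calls, 4 were false. The simulated libraries did not hold the length and GC trends of the real ones.

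The genes named are SMARCA4, construct parts, the 12 genes of lowest p in each direction with at least 1 CPM in a group, the 8 largest non-overlapping opposite movers in each direction with at least 5 CPM in a group and the 2 of lowest p in each list, 91 in all; others given were chosen after their values were seen. The lists and the comparison were chosen with earlier results of these data known. Counting intervals and floors cover counting error only. No label names the cultures, and p-values reflect only how these libraries vary.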

Additional observations from a re-analysis of the deposited data

Results flagged for a closer look

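The mean log2 level of the measured replication-dependent histones moved in opposite directions with the 2 effectors, and every library of one guide lay apart from those of the other under either effector. Of the 16 measured genes taken singly, 0 did so. The effect of the SMARCA4 guide on this score was 0.32 with YTHDF2 and -0.37 with the nuclease, a difference of 0.683; the difference of the scores was not tested.

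Single transcripts passed the test of the difference where their genes did not. The log2 difference of the guide effects was 11.12 for TMEM185A-208, -8.656 for CACNA2D2-202 and 10.69 for LRRC4B-202 (edgeR adjusted p of 0.0244, 0.0244 and 0.0251). In the same order they were called in only 3, 4 and 5 of 16 alternative fits. Each transcript has a group with 0 counts in all 3 libraries, so these fitted values depend on the prior count and give no bound.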

How the results depend on the processing

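Against 0 genes called with edgeR on all 12 libraries, 493 were called with no filter on low counts, 38 with DESeq2, 1668 with voom sample weights, 3 with the length trend removed, 7 with length and GC trends removed and 404 when YTHDF2-NT 2 was left out as well; DESeq2 size factors, a minimum of 5 CPM and length-scaled TPM gave 0. Voom's weights were 0.205, 0.225 and 8.03 for the 3 YTHDF2-NT libraries. Leaving out 1 library gave 0 to 1444 genes and 0 to 44 transcripts, both highest without YTHDF2-NT 2, against 3 transcripts with all libraries; voom gave 0 transcripts. No label says that replicate numbers pair the samples. Same-numbered libraries of different groups correlated between -0.48 and 0.21 over 18 pairs, 3 of them above 0.1. With 3 libraries in each group, these correlations cannot settle whether same-numbered libraries share a batch. With the replicate block 1 gene (ZNF767P) and 0 transcripts were called, and with a block within each effector 0 genes. Of the 91 named genes 89 kept the sign of the difference in every alternative. The exceptions were YTHDF2, at -0.10, which was 0.16 with the length trend removed, 0.15 with length and GC trends removed, 0.13 when YTHDF2-NT 2 was left out as well, and -0.21 to 0.064 when 1 library was left out, and CD14, at 0.47, which was -0.0017 with voom weights. The cause of these changes was not tested. The share of genes with opposite signs lay between 44.7% (no filter) and 57.8%. Against 208 genes without overlap in opposite directions there were 332 with length and GC trends removed, 778 when YTHDF2-NT 2 was left out as well, and 261 to 1291 when 1 library was left out. Depth limits the low genes most: AC010422.3 and CELF3 stood under 5 CPM in every library.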
